A study of Mus musculus with 20 samples.

Results

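The 10 genes described here are Jun, Junb, Jund, Fos, Fosb, Fosl1, Fosl2, Atf3, Egr1 and Klf6, the AP-1 transcription factor genes and a pair of other immediate early genes. They were picked by gene name, with earlier results of these data known, and each was found once among the 46603 Ensembl identifiers that carry read counts in mouse liver. All 10 passed the filter on low counts applied to all 20 libraries and were among the 14661 genes tested. Bulk RNA-seq of polyadenylated RNA was measured in 20 liver libraries from male mice aged 2 months and labelled C57BL6/J. The 5 wild-type (WT) animals were C57BL/6J mice bought from a vendor. The 5 knockout (KO) animals, called EedHepKO, came from inbred crosses of an Alb:Cre transgene with an Eed allele carrying loxP sites around exons 3 and 6. Eed encodes a core subunit of Polycomb repressive complex 2 (PRC2), which places a repressive methyl mark on histone tails. The albumin promoter that drives Cre is chiefly active in hepatocytes, and which other liver cells kept Eed was not measured. Partial hepatectomy (PHx) is the surgical removal of most of the liver mass, and the lobes taken out (1, 2 and 3) served as the baseline sample of an animal. Lobes 4, 5 and 6 were collected after euthanasia. That second collection came 30 h after surgery in 1 animal per genotype, 40 h in 2 and 48 h in 2. This gave 4 groups of 5 libraries. The WT controls were bought and the KO animals were bred by crossing, so genotype and colony of origin cannot be told apart, and neither can PHx and lobe or manner of collection.

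AP-1 is a dimer of basic leucine zipper proteins. A Jun protein (Jun, JunB or JunD) pairs with a Fos protein (Fos, FosB, Fra-1 encoded by Fosl1, or Fra-2 encoded by Fosl2), with another Jun, or with an ATF protein such as Atf3. Most of these genes, like the zinc finger genes Egr1 and Klf6, are immediate early genes, which growth factors and stress switch on through MAP kinases without new protein synthesis. In liver they are known for their brief induction in the hours after PHx, and Jun is known to be needed for normal regeneration. Every collection after PHx here lies later than that first wave.

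Total counts per library ranged from 21634890 to 30461351. Levels are given in counts per 1000000 (CPM) of the library total scaled by TMM, edgeR's correction for composition. Eed, the targeted gene, lay between 14.6 and 23.2 CPM in the 10 WT libraries and between 2.75 and 7.52 CPM in the 10 KO libraries, with no overlap. The tissue label was borne out by the summed level of 9 hepatocyte markers, from 49010 to 154600 CPM per library, with no marker at 0 in any group. WT baseline library 3 had the lowest level of its group for 7 of the 10 genes (Jun, Junb, Jund, Fos, Fosb, Atf3 and Egr1). Its hepatocyte marker sum, 154600 CPM, was the highest of all libraries.

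Promoter sequence was read from RefSeq's entries on GRCm38.p6 (mm10), covering 250 bases before to 50 after a gene's start. The table matched 8 of the 10 genes and holds no entry for Fosl1 or Egr1. The windows were searched whole, and the 250 bases before the start are printed. The 5 shown are those of Fos, Fosb, Jun and Atf3, whose levels varied together across libraries, and of Klf6, which went the opposite way after PHx. Capitals mark letters found on either strand by motif searches chosen after the sequences were seen. TGACNTCA, the cAMP response element form bound by ATF and Jun dimers, was found once in Jun and once in Klf6, and in 8.83% of all 32851 promoter windows. Its shorter core TGACGT, which overlaps it when N is G, was found in Fos and, on the opposite strand, in Atf3, and in 7.51% of all windows. Fos also holds a TATA box, TATAAA, at position -33 from the start, a motif present in 13.6% of windows. The same letters were found in Junb, right at the start used. Fosb holds GCGNGGGCG, the letters bound by Egr proteins, found in 5.55% of windows, and so does Fosl2. The consensus AP-1 site TGANTCA, present in 7.81% of windows, and the CArG box, present in 1.63%, were not in any of the 8 windows. The Fos sequence is chr12:85473640-85473889 on the plus strand, and the Fosb sequence is chr7:19310046-19310295 on the minus strand. The Jun sequence is chr4:95052223-95052472 on the minus strand, and the Klf6 sequence is chr13:5861239-5861488 on the plus strand. The Atf3 sequence, chr1:191183334-191183583 on the minus strand, lies inside the annotated gene, which has a further start upstream. The start used for Fosl2 likewise lies 671 bases inside the annotated gene, and the Jund window ends before the gene start given here, so it does not cover that start.
Fos: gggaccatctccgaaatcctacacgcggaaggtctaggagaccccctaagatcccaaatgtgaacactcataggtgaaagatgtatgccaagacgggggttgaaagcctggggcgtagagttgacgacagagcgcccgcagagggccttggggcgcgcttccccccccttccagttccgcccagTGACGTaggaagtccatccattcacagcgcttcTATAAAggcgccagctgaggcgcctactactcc
Fosb: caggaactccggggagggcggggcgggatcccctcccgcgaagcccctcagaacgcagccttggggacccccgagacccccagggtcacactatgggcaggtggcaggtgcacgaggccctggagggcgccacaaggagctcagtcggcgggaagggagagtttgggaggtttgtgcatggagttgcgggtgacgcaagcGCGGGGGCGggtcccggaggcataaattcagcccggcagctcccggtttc
Jun: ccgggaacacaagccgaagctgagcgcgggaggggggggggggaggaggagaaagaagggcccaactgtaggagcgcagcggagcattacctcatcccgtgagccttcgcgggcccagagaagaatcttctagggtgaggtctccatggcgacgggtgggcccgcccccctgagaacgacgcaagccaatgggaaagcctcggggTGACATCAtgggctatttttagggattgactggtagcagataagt
Atf3: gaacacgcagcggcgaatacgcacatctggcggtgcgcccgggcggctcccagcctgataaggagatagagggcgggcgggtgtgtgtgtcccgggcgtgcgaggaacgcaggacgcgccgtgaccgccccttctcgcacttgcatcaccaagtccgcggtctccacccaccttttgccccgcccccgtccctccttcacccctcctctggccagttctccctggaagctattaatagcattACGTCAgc
Klf6: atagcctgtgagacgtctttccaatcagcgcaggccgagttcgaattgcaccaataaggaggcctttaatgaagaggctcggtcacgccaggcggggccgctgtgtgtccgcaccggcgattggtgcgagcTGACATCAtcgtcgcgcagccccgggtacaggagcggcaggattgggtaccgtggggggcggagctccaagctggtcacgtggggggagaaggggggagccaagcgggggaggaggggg

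Before surgery Fos, Klf6 and Fosl2 were higher in KO than in WT liver, and after PHx Klf6 and Fosl2 were still higher in KO. From baseline to the collection after PHx, Jun, Fos, Fosb and Egr1 fell in both genotypes and Atf3 fell in KO, while Fosl1 and Klf6 rose in both. Junb and Jund passed the test in no comparison of all 20 libraries with TMM scaling. No gene of the 10 had a response to PHx that differed between the genotypes beyond the spread of the libraries. In bulk tissue, fewer cells of a type and less RNA per cell cannot be told apart.

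**Figure D1:**
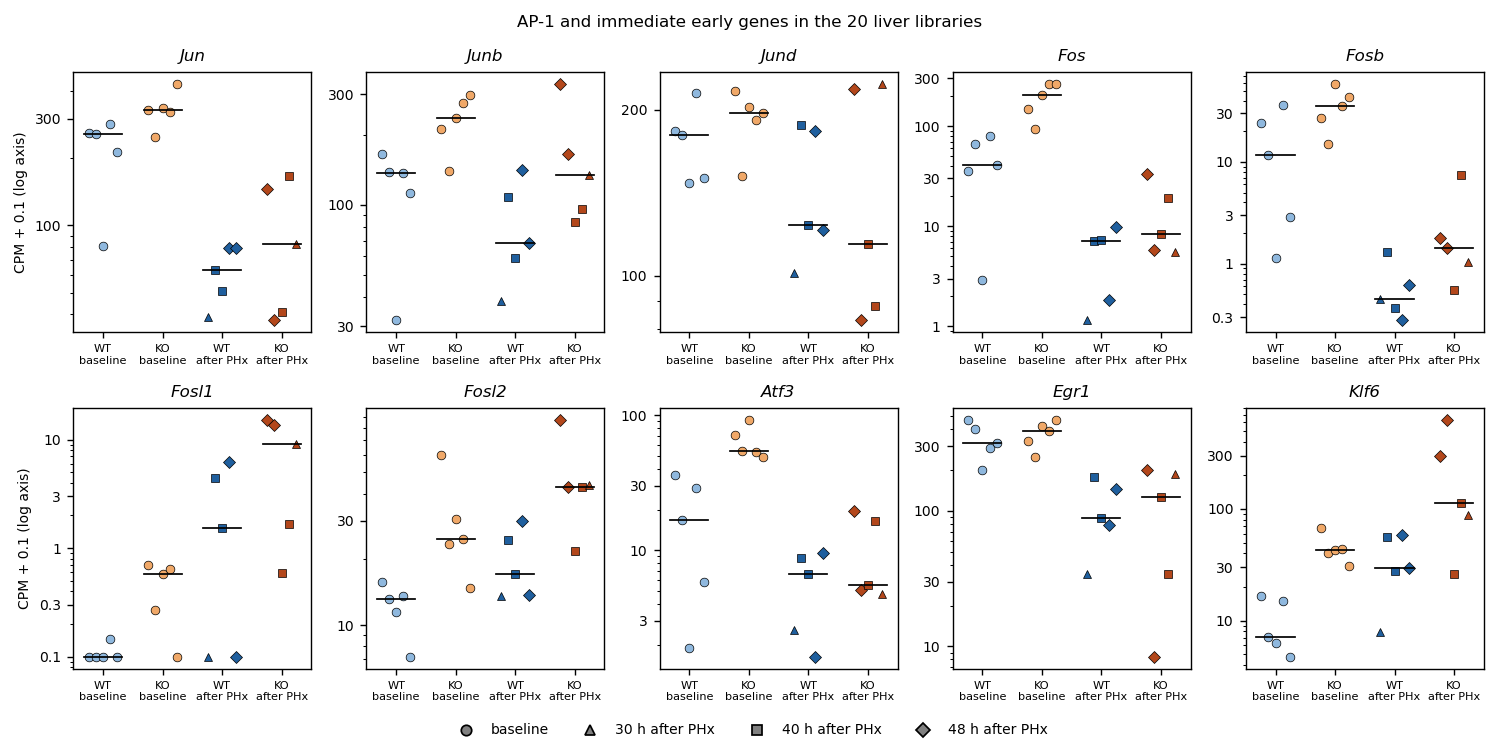
Level of each of the 10 genes in each of the 20 libraries, as CPM plus 0.1 on a log axis whose range differs between panels; marker shape gives the collection time and the horizontal bar is the median of the 5 libraries of a group. The medians of Jun, Fos, Fosb and Egr1 are lower after PHx in both genotypes, and those of Fosl1 and Klf6 are higher. Library ranges overlap between stages for Fosl1 and Klf6 in both genotypes and for Fos and Fosb in WT. Jund stays between 82.9 and 223 CPM in all 20 libraries.

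Fos (ENSMUSG00000021250, chr12:85473890-85477273) encodes the Fos subunit that can bind DNA only with a Jun partner. It stood at 35.6, 65.3, 2.78, 78.7 and 41.0 CPM in WT baseline libraries 1 to 5 and at 146, 93.3, 204, 259.7 and 266 CPM in KO baseline libraries 7, 8, 10, 11 and 12. Every KO baseline library was above every WT one, and WT library 3 stood apart at the bottom. The group means were 44.7 ± 29.3 and 193.8 ± 74.1 CPM (SD, n = 5 each), and the difference was a log2 fold change of 2.12 (SE 0.69, edgeR adjusted p = 0.0419). That call was lost in 8 of 20 fits that left out a library (adjusted p up to 0.0853), each of them a baseline library. After PHx the WT libraries 1 to 5 held 1.05, 7.05, 7.12, 1.74 and 9.79 CPM and the KO libraries held 33.4, 5.64, 8.28, 18.9 and 5.49 CPM. The genotypes overlapped at this stage, with 2 KO libraries above all others, and the log2 difference of 1.42 (SE 0.69) did not pass the test (edgeR adjusted p = 0.140). Against baseline, Fos fell in WT by 3.06 on the log2 scale (SE 0.72, edgeR adjusted p = 0.00657) and in KO by 3.75 (SE 0.74, edgeR adjusted p = 0.00201). The KO groups did not overlap between stages, whereas the WT groups did because of baseline library 3. With the mouse as a block, which rests on the 9 mice numbered at both stages, the WT change was -2.49 and lost its call (edgeR adjusted p = 0.115). The same 18 libraries without the block gave -2.87, still called (edgeR adjusted p = 0.0184).

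Fosb (ENSMUSG00000003545, chr7:19302696-19310051) encodes the closest relative of Fos, with a similar activation domain. WT baseline libraries 1 to 5 held 23.9, 11.6, 1.03, 35.7 and 2.75 CPM of Fosb, and KO baseline libraries 7, 8, 10, 11 and 12 held 26.6, 15, 58.7, 35.6 and 43.4 CPM. The WT libraries spread over a 34.7-fold range that overlapped the KO range, and the genotype difference did not pass the test (log2 1.26, SE 0.76, edgeR adjusted p = 0.274). After PHx, Fosb was at 0.349, 1.22, 0.266, 0.177 and 0.515 CPM in WT libraries 1 to 5 and at 1.68, 1.32, 0.458, 7.39 and 0.947 CPM in the KO libraries. The genotype difference at this stage, 2.25 (SE 0.86), did not pass (edgeR adjusted p = 0.0622), though DESeq2 called it (0.0153), and without KO library 11 it was 1.11 (edgeR adjusted p = 0.337). In KO every library after PHx was below every baseline library, and in WT only library 3 at baseline lay within the range after PHx. Fosb fell by 4.90 on the log2 scale in WT (SE 0.92, edgeR adjusted p = 0.00134) and by 3.91 in KO (SE 0.84, edgeR adjusted p = 0.00326), from means of 14.99 ± 14.7 to 0.505 ± 0.417 CPM in WT and of 35.9 ± 16.6 to 2.36 ± 2.85 CPM in KO (SD, n = 5 each). The KO change was -5.04 without KO library 11 after PHx, and the WT change was -4.28 without baseline library 4 and -5.49 without library 2 after PHx.

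Fosl1 (ENSMUSG00000024912, chr19:5447547-5455946) encodes Fra-1, which lacks the strong activation domain of Fos. In WT baseline liver a single read was counted over the 5 libraries together, 0.0459 CPM in library 4. In KO baseline libraries 7, 8, 10, 11 and 12 it stood at 0.597, 0.169, 0.483, 0.540 and 0 CPM, from 49 reads in all. The pooled ratio was 37.6 with a 95% counting interval from 6.45 to 1516, which covers counting error only, and the edgeR test across libraries did not pass (adjusted p = 0.0989), while DESeq2 called it (0.0309), as did edgeR with library size alone (0.0479). After PHx the WT libraries 1 to 5 held 0, 4.31, 1.45, 6.06 and 0 CPM, and the KO libraries held 15.1, 13.6, 0.496, 1.58 and 8.99 CPM. Fosl1 was thus seen in 3 of 5 WT and 5 of 5 KO livers after PHx, and its level differed by 30.5-fold between the lowest and highest of the KO livers. In WT the rise rested on 308 reads against 1, a pooled ratio of 234 (95% counting interval 41.7 to 9274, edgeR adjusted p = 0.0069). That log2 change, 7.31 with all libraries, ran from 6.64 to 8.95 with 1 library left out. With only the baseline libraries or only the WT libraries in the fit, Fosl1 failed the filter on low counts and was not tested. In KO the mean went from 0.358 ± 0.260 to 7.96 ± 6.72 CPM (SD, n = 5 each), a log2 fold change of 4.43 (SE 1.21, edgeR adjusted p = 0.0116). Fosl1 overlaps Ccdc85b over 1163 exon bases, and whether reads were counted by strand is not given in the sources used here. Ccdc85b was at 5.97 to 8.03 CPM in the same WT baseline libraries in which Fosl1 had 1 read.

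Fosl2 (ENSMUSG00000029135, chr5:32135801-32157842) encodes Fra-2, the other Fos protein without that domain. WT baseline libraries 1 to 5 held 15.7, 13.1, 11.4, 13.5 and 7.06 CPM of Fosl2, and the KO baseline libraries held 59.8, 23.3, 30.4, 24.6 and 14.7 CPM. The lowest KO library, number 12, lay below the highest WT library, and the other 4 lay above all WT libraries. The KO mean of 30.6 ± 17.3 CPM exceeded the WT mean of 12.2 ± 3.23 CPM (SD, n = 5 each) by a log2 fold change of 1.33 (SE 0.37, edgeR adjusted p = 0.0181). After PHx the WT libraries stood at 13.5, 24.4, 17.1, 29.9 and 13.6 CPM and the KO libraries at 87.0, 42.7, 21.6, 42.6 and 43.9 CPM. Here 4 of the 5 KO libraries were above every WT library, and the genotype difference was 1.27 (SE 0.37, edgeR adjusted p = 0.0162). The change from baseline did not pass in WT (log2 0.70, edgeR adjusted p = 0.187) or in KO (log2 0.64, edgeR adjusted p = 0.185), but it was called in WT with library size alone (1.06, 0.0465) and in KO without baseline library 7 (1.00, 0.0392).

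Jun (ENSMUSG00000052684, chr4:95049034-95052222) encodes the Jun protein with the strongest activating function in the family. It stood at 259.6, 256, 80.4, 283 and 212 CPM in WT baseline libraries 1 to 5 and at 328, 248, 334, 323 and 431 CPM in the KO baseline libraries. The ranges overlapped, and the genotype difference of 0.61 (SE 0.38) did not pass the test (edgeR adjusted p = 0.292). After PHx, Jun was at 38.7, 63.1, 50.7, 79.2 and 79.4 CPM in WT and at 146, 37.5, 41.0, 166 and 82.6 CPM in KO. Within each genotype every library after PHx was below every baseline library. On the log2 scale Jun fell by 1.81 in WT (SE 0.39, edgeR adjusted p = 0.00357) and by 1.81 in KO (SE 0.39, edgeR adjusted p = 0.00322), that is 3.51-fold and 3.52-fold. Jun shares 232 exon bases with the antisense gene Junos, which was at 0.783 CPM or less in every library.

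Junb (ENSMUSG00000052837, chr8:84974484-84978718) encodes a weaker activator that can oppose Jun. Its levels were 166, 138, 31.6, 137 and 113 CPM in WT baseline libraries 1 to 5 and 213, 140.1, 236, 274 and 298 CPM in KO baseline libraries. The KO mean was 232.4 ± 61.3 CPM against 117.2 ± 51.4 CPM in WT (SD, n = 5 each), but the log2 difference of 0.99 (SE 0.42) did not pass the test (edgeR adjusted p = 0.119). It was called with only the baseline libraries fitted (1.01, edgeR adjusted p = 0.0321) and with library size alone (1.47, 0.0169). After PHx it ranged from 38.5 to 142 CPM in WT, with a median of 68.6, and from 84.5 to 333 CPM in KO, with a median of 134. Neither the genotype difference after PHx (log2 0.97, edgeR adjusted p = 0.103) nor the response in WT (-0.50, adjusted p = 0.435) or KO (-0.51, adjusted p = 0.359) passed. The genotype difference after PHx was called with library size alone (1.36, edgeR adjusted p = 0.0210) and without KO library 10 (1.13, 0.0494). Jund (ENSMUSG00000071076, chr8:70698949-70700616) encodes the Jun protein known for steady expression in many tissues. Its group means lay between 143.2 and 191.7 CPM, and no single library was below 82.9 or above 223 CPM. The 95% interval of the KO to WT difference in Jund was -0.38 to 0.64 at baseline and -0.49 to 0.53 after PHx, both on the log2 scale. Junb shares 173 exon bases with Prdx2, which was at 48.4 to 111.5 CPM, and Jund shares 877 with Gm11175, which was at 1.59 CPM or less.

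Atf3 (ENSMUSG00000026628, chr1:191170296-191218039) encodes a stress-induced ATF protein that pairs with Jun. WT baseline libraries 1 to 5 held 35.8, 16.6, 1.80, 28.6 and 5.69 CPM of Atf3, and KO baseline libraries held 70.7, 54.6, 92.4, 53.5 and 48.8 CPM. All 5 KO libraries were above all 5 WT libraries, yet the log2 difference of 1.86 (SE 0.63) just missed the threshold (edgeR adjusted p = 0.0513). It passed under 4 of 6 other settings, among them DESeq2, and in 9 of 20 fits that left out a library, with adjusted p from 0.0124 to 0.116 over all of them. After PHx the WT libraries stood at 2.44, 8.66, 6.58, 1.52 and 9.51 CPM and the KO libraries at 19.5, 4.99, 5.45, 16.5 and 4.64 CPM. In KO each of these lay below every baseline library, and Atf3 fell by 2.65 on the log2 scale (SE 0.65, edgeR adjusted p = 0.00669). In WT the change was -1.62 (SE 0.64, edgeR adjusted p = 0.0778), and it ranged from -1.91 without baseline library 3 (adjusted p = 0.0304) to -0.47 with the mouse as a block (0.764). DESeq2 also called it (-1.59, adjusted p = 0.0390), and the 18 libraries of the block without it did not (edgeR adjusted p = 0.323).

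Egr1 (ENSMUSG00000038418, chr18:34859823-34864984) encodes a zinc finger factor that binds GC-rich promoters. It was at 468, 403, 199.8, 289.8 and 318 CPM in WT baseline libraries 1 to 5 and at 329.5, 249, 421, 391 and 471 CPM in KO baseline libraries. These ranges lay over each other, with a genotype difference of 0.15 (SE 0.56, edgeR adjusted p = 0.887) and a 95% interval from -0.94 to 1.24. After PHx, Egr1 was at 34.1, 179, 89.2, 78.2 and 145 CPM in WT and at 199, 8.28, 126, 34.4 and 186 CPM in KO. Each library after PHx was below every baseline library of its genotype, and the KO libraries after PHx differed among themselves by 24.1-fold. Egr1 fell by 1.68 in WT (SE 0.57, edgeR adjusted p = 0.0436) and by 1.75 in KO (SE 0.57, edgeR adjusted p = 0.0282) on the log2 scale. The WT call was lost with the 18 libraries of the mice numbered at both stages, both without the mouse as a block (-1.30, edgeR adjusted p = 0.151) and with it (-1.34, 0.123). It was also lost with library size alone (0.0646), without a filter on low counts (0.0600) and in 13 of 20 fits that left out a library (adjusted p up to 0.113). The KO call was lost in 3 of 20 (up to 0.0593) and with only the KO libraries fitted (0.0778).

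Klf6 (ENSMUSG00000000078, chr13:5861482-5870394) encodes a zinc finger factor known for its induction after liver injury. Its levels were 16.4, 7.05, 6.23, 14.9 and 4.63 CPM in WT baseline libraries 1 to 5 and 67.8, 40.1, 42.7, 43.8 and 30.4 CPM in KO baseline libraries. Every KO baseline library was above every WT one. The means were 45.0 ± 13.8 against 9.86 ± 5.43 CPM (SD, n = 5 each), a log2 fold change of 2.19 (SE 0.65, edgeR adjusted p = 0.0256). After PHx, Klf6 was at 7.85, 55.4, 27.8, 58.8 and 29.5 CPM in WT and at 299.5, 629.8, 26.01, 112 and 87.3 CPM in KO. Most KO libraries lay above all WT ones, library 10 did not, and library 8 held more than any other library. The KO excess was 2.69 (SE 0.65, edgeR adjusted p = 0.00539), and 1.84 without library 8 (0.0282). Against baseline Klf6 rose by 1.86 in WT (SE 0.64, edgeR adjusted p = 0.0451) and by 2.36 in KO (SE 0.65, edgeR adjusted p = 0.0117). The WT rise lost its call in 11 of 20 fits that left out a library (adjusted p up to 0.104). The KO rise was 1.52 and lost its call without KO library 8 (edgeR adjusted p = 0.0617).

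At baseline, then, KO liver held more Fos, Klf6 and Fosl2 than WT liver, and no gene of the 10 was lower. These 3 of 10 higher and 0 of 10 lower stand against 11.1% of all 14661 tested genes called higher and 4.89% called lower. The median log2 fold change was 1.30 over the 10 genes and -0.03 over all tested genes, 6 of the 10 had an unadjusted p under 0.05, and none of the 10 estimates was negative. DESeq2 called 5 of the 10. Without WT library 3 the Fos difference was 1.81 (edgeR adjusted p = 0.0612) and the Klf6 difference 2.06 (0.0665), neither called, while Fosl2 stayed called at 1.31 (0.0435). Leaving out WT baseline library 5 or KO baseline library 7 removed all 3 calls, leaving out WT baseline library 2 left 1, and the Fos call was also lost without WT baseline library 1 or KO baseline library 10, 11 or 12. Macrophage and Kupffer cell markers (14 of 14 found) summed to 241.4 to 411.7 CPM in WT and 631.7 to 819.4 CPM in KO, and stellate cell and fibroblast markers (12 of 12) to 190.8 to 322.6 CPM in WT and 497.8 to 709.4 CPM in KO. Both sums were higher in every KO baseline library than in every WT one, and so were the cholangiocyte sum (10 markers), at 70.3 to 380.5 against 23.8 to 61.1 CPM, and the endothelial sum (12 markers), at 334.7 to 384.1 against 271.4 to 305.4 CPM. The neutrophil sum (10 markers) was 3.85 to 11.9 CPM in KO and 1.19 to 2.15 CPM in WT, where Ly6g, Mpo, Ngp and Camp were at 0. The hepatocyte sum (9 markers) went the other way, at 84820 to 115800 CPM in KO and 132300 to 154600 CPM in WT, and so did the red cell sum (5 markers), at 155.3 to 266.3 and 316.2 to 494.9 CPM. The part of these cell types in the differences was not tested.

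**Figure D2:**
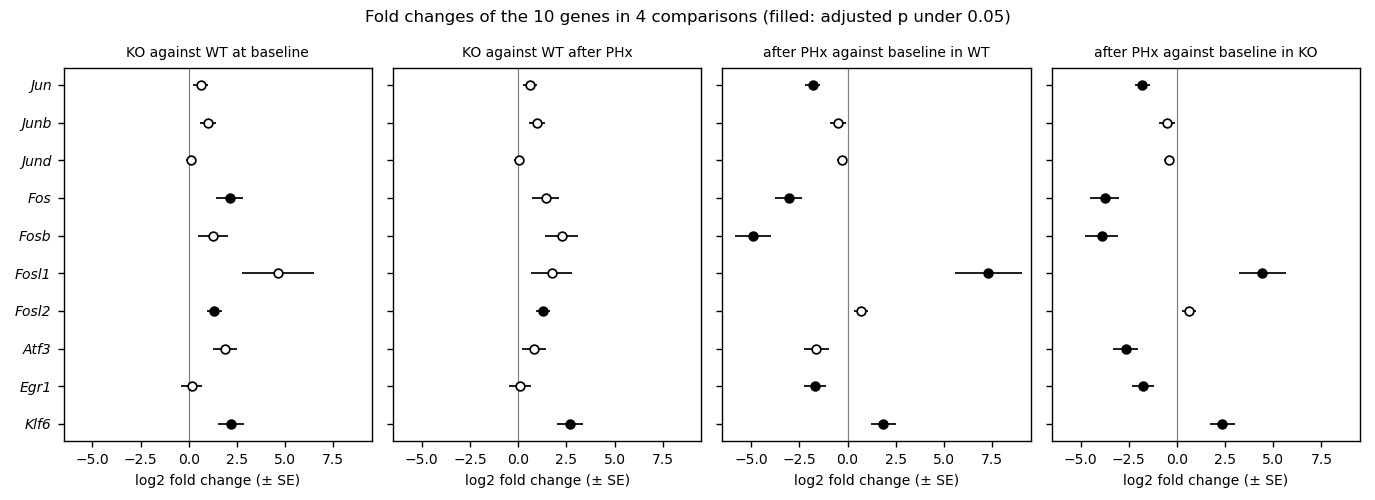
Log2 fold change of each gene (points, with bars of 1 SE on each side) in 4 comparisons from a fit of all 20 libraries; filled points passed a Benjamini-Hochberg adjusted p of 0.05. In the genotype comparisons Fosl2 and Klf6 are filled on the positive side at both stages and Fos at baseline alone, and in the PHx comparisons Fosl1 and Klf6 lie to the right and Jun, Fos, Fosb and Egr1 to the left; Fosl1 points against WT baseline rest on 1 read there.

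After PHx, Klf6 and Fosl2 were higher in KO than in WT liver and none of the 10 was lower. The 2 of 10 compare with 16% of tested genes called higher and 8.2% called lower in this comparison, 4 of the 10 had an unadjusted p under 0.05, and DESeq2 called 3. The median log2 fold change was 1.12 over the 10 and -0.01 over all tested genes. With only the 10 libraries of this stage in the fit, Klf6 missed the threshold (edgeR adjusted p = 0.0538), and without KO library 7 Fosl2 did (adjusted p = 0.0589, log2 0.98). Without KO library 10, 4 of the 10 were called. Cholangiocyte markers summed to 130.0 to 852.7 CPM in KO and 21.8 to 241.9 CPM in WT after PHx, and the highest sum belonged to KO library 8, the library with the highest Klf6. KO library 8 also had the lowest hepatocyte sum, 49010 CPM. KO libraries 7 and 8, with the most Fosl1, had cholangiocyte sums of 594 and 852.7 CPM, but KO library 12, with 8.99 CPM of Fosl1, had the lowest of its group, 130.0 CPM. Stellate cell and fibroblast sums did not overlap, at 317.9 to 592.1 CPM in KO and 221.9 to 279.8 CPM in WT. Macrophage sums overlapped, at 190.0 to 550.6 CPM in KO and 105.7 to 497.8 CPM in WT. The part of these cell types in the levels of Klf6, Fosl2 and Fosl1 was not tested.

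In the response to PHx, 4 of the 10 genes fell and 2 rose in WT, and 5 fell and 2 rose in KO. In WT, 8.68% of tested genes were called lower and 11.4% higher, and in KO 12.1% were called lower and 17.5% higher. The median log2 fold change of the 10 was -1.06 in WT and -1.13 in KO, against 0.04 and 0.10 over all tested genes. Both responses held 7 of the 10 genes at an unadjusted p under 0.05. In 9 animals the titles give the same mouse number at both stages, 4 WT and 5 KO. Jun, Fosb and Egr1 were lower after PHx in 9 of 9 animals, Fos in 8, Atf3 in 7, Jund in 6 and Junb in 5. The Fos exception was WT mouse 3, whose baseline library had only 2.78 CPM. Fosl1, Fosl2 and Klf6 were higher after PHx in 8 of 9 animals. For Fosl1 the exception was WT mouse 5, at 0 CPM both times, and for Klf6 it was KO mouse 10, which went from 42.7 to 26.01 CPM. Across animals the change of Fos on the log2(CPM + 1) scale ran from -5.36 to 1.10, with a median of -3.71, and that of Klf6 from -0.69 to 3.94, with a median of 1.99. The single 30 h library in WT, number 1, was the lowest of its group for 8 of the 10 genes, though for Fosl1 it tied with library 5 at 0 CPM. The single 30 h library in KO, number 12, was the lowest for 2. A term for collection time ended the call of Egr1 in WT and of no other gene of the 10. Neutrophil markers summed to 1.96 to 48.7 CPM in WT after PHx against 1.19 to 2.15 CPM at baseline, and lymphocyte markers (11 of 11) to 0.248 to 1.96 CPM against 3.76 to 7.95 CPM. Macrophage sums in WT were 105.7 to 497.8 CPM after PHx and 241.4 to 411.7 CPM at baseline, overlapping. The endothelial sums did not overlap between stages, at 159.0 to 260.0 CPM after PHx against 271.4 to 305.4 CPM in WT and at 160.2 to 303.1 against 334.7 to 384.1 CPM in KO, and neither did the KO lymphocyte sum, at 0.395 to 3.01 against 6.24 to 10.31 CPM. In KO the macrophage sum went the way of Fos, from 631.7 to 819.4 CPM at baseline to 190.0 to 550.6 CPM after PHx, and the part of these cells in the falls was not tested. Beside the rises, cholangiocyte sums had ranges that overlapped between stages, at 130.0 to 852.7 CPM after PHx against 70.3 to 380.5 CPM at baseline in KO and at 21.8 to 241.9 against 23.8 to 61.1 CPM in WT. Hepatocyte sums overlapped as well, at 49010 to 109400 CPM after PHx against 84820 to 115800 CPM in KO and at 83510 to 134400 against 132300 to 154600 CPM in WT. Their part was not tested either.

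**Figure D3:**
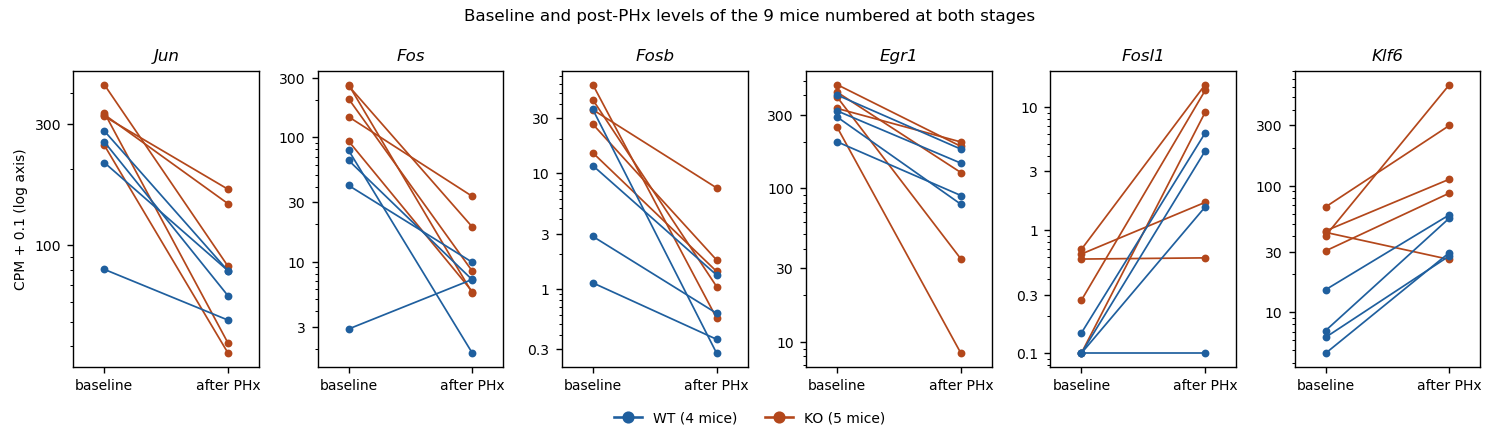
Levels of 6 of the genes at baseline and after PHx, as CPM plus 0.1 on a log axis, with a line for each of the 9 mice numbered at both stages (blue, 4 WT; red, 5 KO). All 9 lines descend for Jun, Fosb and Egr1, 8 of 9 descend for Fos, and 8 of 9 climb for Fosl1 and Klf6; for Fosl1 in KO mouse 10 the climb is from 0.483 to 0.496 CPM.

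Whether KO and WT livers responded differently was tested as the difference between the responses. It was called for 0 of the 10 genes, against 0.389% of all tested genes (57 of 14661). The 0 was also the count at an unadjusted p under 0.05 for these genes, and DESeq2 called 0 as well. The background count moved with single libraries, most of all with KO library 10 after PHx, without which it was 412 genes higher and 296 lower (24 and 33 with all), and DESeq2 called 192 and 184, while the count over the 10 genes was 0 in each. The adjusted p by edgeR ran from 0.611 for Fosl1 to 1.0 for Jun. The intervals, which take a normal quantile of the SE and so are narrower than the F test would give, differ in width between genes. For Jun the difference was 0.00 with a 95% interval from -1.06 to 1.05, for Jund -0.11 (-0.84 to 0.61) and for Fosl2 -0.06 (-1.07 to 0.94), on the log2 scale. For Fos it was -0.69 (-2.55 to 1.17), for Fosb 0.99 (-1.20 to 3.18), for Atf3 -1.03 (-2.75 to 0.69) and for Klf6 0.50 (-1.22 to 2.21). For Fosl1, with 1 read in WT baseline liver, it was -2.88, with the widest interval (-7.22 to 1.46), and it ran from -4.53 to -2.25 with 1 library left out. The intervals of Fos, Fosb, Fosl1, Atf3 and Klf6 each reach beyond a log2 difference of 2 on a side, so the test does not show that the responses were alike.

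Levels between genes were compared as CPM per kilobase of exon. In WT baseline liver the order was Jund (105), Egr1 (74.9), Jun (68.5), Junb (50.9), Fos (19), Atf3 (8.21), Fosb (2.40), Klf6 (2.25), Fosl2 (1.26) and Fosl1 (0.0045). In KO liver after PHx it was Jund (87.1), Junb (70.7), Klf6 (52.6), Jun (29.7), Egr1 (24.7), Fos (6.10), Fosl2 (4.91), Atf3 (4.74), Fosl1 (3.91) and Fosb (0.378). The library ranges of neighbours overlapped throughout both orders, except those of Fosl2 and Fosl1 in WT baseline liver. Jund was the highest in both. In KO liver after PHx the mean of Klf6 is raised by library 8, and by medians Klf6 (25.6) came below Egr1 (28.05) and Jun (25.9). Fos made up 77.2 ± 18.6% of Fos family transcripts in WT baseline liver and 89.5 ± 3.43% in KO baseline liver (SD, n = 5 each). After PHx its share was 40.2 ± 24.9% in WT and 39.5 ± 19.3% in KO. Library ranges of this share overlapped between stages in WT (46.9 to 93.7% and 10.8 to 73.7%) and not in KO (85.3 to 93.0% and 17.5 to 58.0%). The share of Fosl2, whose level was not called changed, was 13.2 ± 18.7% at baseline and 41.5 ± 19.4% after PHx in WT, and 4.08 ± 2.90% and 33.7 ± 4.41% in KO. Fosl1 had 16.7 ± 18.7% in WT and 24.2 ± 19.8% in KO after PHx. The share of Fosl1 at baseline was 0.0111% in WT and 0.210% in KO. The summed Fos family level had a mean of 22.7 CPM per kilobase at baseline and 5.55 after PHx in WT, and of 91.5 and 15.3 in KO. WT baseline library 3 lay within the range of the WT libraries after PHx, with 46.9% Fos and 46.6% Fosl2. In the Jun family the share of Jun went from 29.5 ± 5.44% to 14.1 ± 3.21% in WT and from 32.6 ± 2.00% to 16.3 ± 10.97% in KO, where library 11 after PHx, at 35.6%, lay above every baseline library, and Jund held the largest mean share in all 4 groups, from 36.3% to 61.5%. Fosl1 shares 1163 of its 2033 exon bases with Ccdc85b, and Jund shares 877 of its 1668 with Gm11175. As the strand setting is not given, the levels per kilobase of these genes, and so the family shares, may be off. The shares describe the libraries and were not tested.

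**Figure D4:**
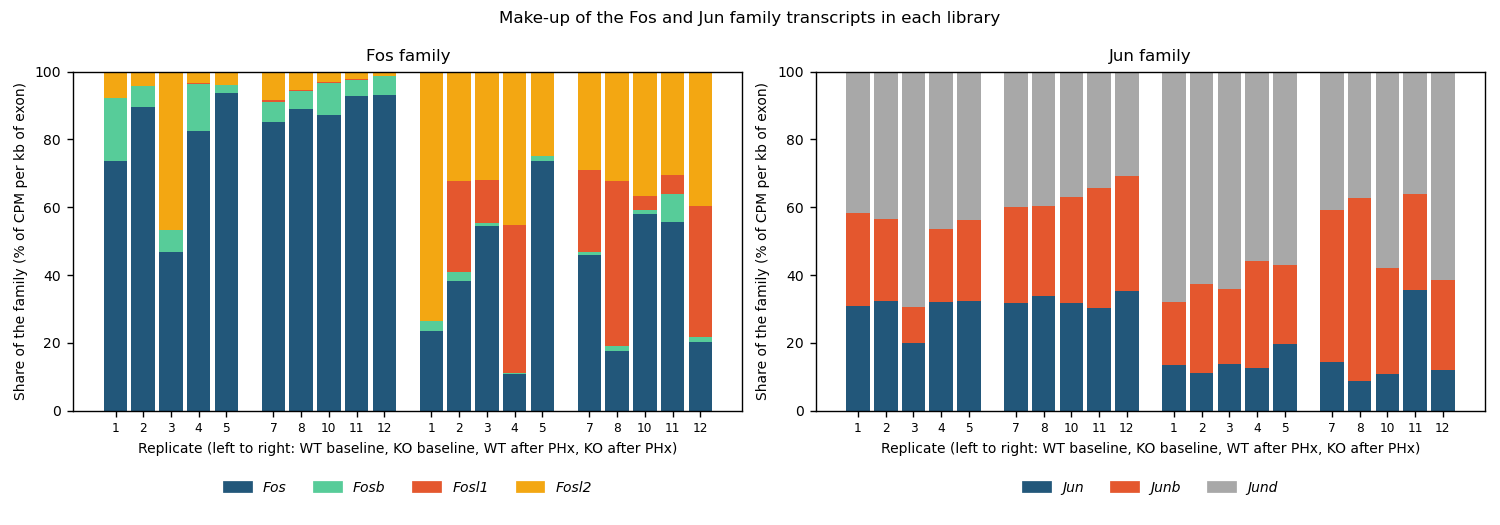
Share of each gene in the summed CPM per kilobase of exon of the Fos family (left) and Jun family (right), 1 bar per library, in percent. Fos fills at least 73.6% of the bar in 9 of the 10 baseline libraries, and after PHx Fosl2 and Fosl1 fill most of the rest; Jund takes the largest mean share of the Jun family in each group.

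Across the 20 libraries the genes varied in sets. Pearson's r of log2(CPM + 1) was 0.93 between Fos and Atf3, 0.91 between Fos and Fosb and 0.91 between Fos and Jun. After group means were removed these were 0.82, 0.67 and 0.76, so the genes also moved together among livers of a group. A second set was Klf6, Fosl2 and Fosl1, with r of 0.88 between Fosl2 and Klf6 and 0.83 between Fosl1 and Klf6 (0.69 and 0.78 within groups). Between the sets r was -0.02 for Fos and Klf6 and -0.36 for Fos and Fosl1 (0.21 and 0.0 within groups). Within groups Junb went with both sets, at 0.65 with Fos and 0.61 with Klf6. Jund went most closely with Egr1 (0.81, and 0.77 within groups). The libraries share animals and genotype, so these values are a description. Among 9533 other genes with a mean of at least 5 CPM, those most like Fos were Ccn1 (r = 0.90), Ier2 (0.87) and Arhgap45 (0.85). Those most like Fosb were Nr4a1 (0.93), Ccn1 (0.88) and Arhgap45 (0.86), and those most like Atf3 were Ccn1 (0.91), Arhgap45 (0.89) and Nr4a1 (0.86). Jun went with Ier2 (0.88), Zfp36 (0.87) and Nr4a1 (0.87), and Egr1 with Ier2 (0.91), Aldh1l1 (0.86) and Zfp36 (0.86). Ier2, Zfp36, Nr4a1 and Ccn1 are themselves immediate early genes. Nr4a1, which encodes an orphan nuclear receptor, had a mean of 48.0 CPM in WT and 123.3 CPM in KO at baseline and of 3.08 and 6.83 CPM after PHx. Junb was most like Btg2 (0.86), Ccn1 (0.79) and Dtx4 (0.75), and Jund was most like Ier2 (0.79), Khk (0.78) and Cs (0.78). Fosl1 had Runx1, Gars and Rab31 as its nearest genes, each at r = 0.97. Runx1, a transcription factor gene, stood at 0.391, 2.12, 8.37 and 43.7 CPM in WT baseline, KO baseline, WT after PHx and KO after PHx. Fosl2 was most like Dusp5 (0.93), Sema4c (0.89) and Csnk1e (0.89), and Klf6 was most like Sccpdh (0.93), Tes (0.93) and Gab2 (0.92).

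The counts of the following lists stand beside the shares of all tested genes called, which were 11.1% higher and 4.89% lower in KO at baseline, 16% and 8.2% after PHx, 11.4% and 8.68% in the WT response and 17.5% and 12.1% in the KO response. Of 44 other immediate early genes tested (of 46 listed), 12 were higher and 0 lower in KO at baseline, with a list median of 0.74 on the log2 scale, and by DESeq2 16 and 0. The largest were Egr2 (3.40, SE 0.84, edgeR adjusted p = 0.00876), Nr4a2 (2.70) and Klf4 (2.50). After PHx 15 were higher in KO, led by Klf4 (3.49), Ccn2 (3.13) and Gadd45a (3.08). Without KO library 8 the Ccn2 difference was 0.59 and not called (edgeR adjusted p = 0.468). Of the 44 genes Plk3 alone was lower (-0.96, SE 0.30, edgeR adjusted p = 0.0228), a call lost in 4 of 20 fits that left out a library. In the WT response 10 rose and 9 fell, and in the KO response 11 rose and 9 fell, with medians of 0.13 and 0.14 against 0.04 and 0.10 over all genes. Nr4a1 fell by 3.96 in WT and by 4.17 in KO. Nr4a2 fell by 2.57 in WT and by 2.47 in KO, Gadd45a fell by 1.90 in WT, and Egr2 fell by 3.34 in KO. Ier3, a survival gene, rose by 4.76 in WT and 3.27 in KO, next to Per1 (2.61) and Socs3 (2.57) in WT and Tiparp (3.52) and Klf4 (3.04) in KO. With the mouse as a block the WT fall of Nr4a2 (edgeR adjusted p = 0.0773) and the KO rise of Ier3 (0.0904) were no longer called. The WT fall of Gadd45a was not called with the same 18 libraries, with the block (0.174) or without it (0.210), and was -1.22 without WT baseline library 1 (0.148). Without KO library 7 after PHx the KO rise of Ier3 was 2.42 (0.0827), and without WT baseline library 5 its WT rise was 5.49 (0.0113).

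MAP kinase phosphatases and Sprouty proteins damp the signal that switches on immediate early genes. Of 16 such genes tested, 5 were higher in KO at baseline and 9 after PHx, with 0 lower at either stage. Dusp5 was higher by 3.38 (SE 0.64, edgeR adjusted p = 0.00127) at baseline and by 2.14 after PHx, and Dusp14 by 1.64 and 2.25. Spred3 was higher by 2.94 after PHx, but by 1.98 and not called without KO library 8 (edgeR adjusted p = 0.132), without which its KO rise below was 3.17 (0.0250). The Dusp14 call at baseline was lost in 7 of 20 fits that left out a library, and the KO rise of Spry2 below in 6. In the WT response Dusp5 (2.48) and Dusp8 (1.33) rose, and Dusp1, Spry4 and Dusp6 fell by 1.89, 1.73 and 1.14. In the KO response 5 rose, led by Spred3 (4.12), Dusp10 (1.54) and Spry2 (1.41), and Dusp1, Dusp8 and Dusp6 fell by 2.01, 1.76 and 1.45. Dusp8, a phosphatase of the JNK and p38 kinases, was the only gene of these lists whose response differed between the genotypes by edgeR (-3.08, SE 0.50, edgeR adjusted p = 0.00952). Its means were 1.74 ± 1.09 and 4.37 ± 1.21 CPM in WT at baseline and after PHx, and 14.01 ± 4.54 and 4.15 ± 0.670 CPM in KO (SD, n = 5 each). With the mouse as a block that difference was -3.40 and was not called (edgeR adjusted p = 0.0567), and neither were the KO rises of Spred3 (0.159) and Spry2 (0.136).

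The kinases and SRF cofactors act upstream of the family. Of 17 tested, 0 passed at baseline by edgeR, where 6 had an unadjusted p under 0.05 and DESeq2 called 2. After PHx Srf was higher in KO (0.60, SE 0.17, edgeR adjusted p = 0.0127) while Map2k2 (-0.50), Map2k7 (-0.49) and Mapk9 (-0.32) were lower. Mapk9, which encodes the Jun kinase JNK2, fell by 0.34 in the WT response and by 0.40 in the KO response. With scaling by library size alone the Mapk9 values in KO against WT after PHx and in the WT response turned positive, and with the mouse as a block the falls were not called (edgeR adjusted p = 0.133 in WT and 0.0666 in KO). The same 18 libraries without the block did not call the WT fall either (0.0502). With 1 library left out the Mapk9 call in KO against WT after PHx was lost in 16 of 20 fits, that in the WT response in 15, Map2k7 in 4 and Map2k2 in 3. Of 14 other basic leucine zipper genes, Maf was higher in KO at baseline (1.00, SE 0.19, edgeR adjusted p = 0.00102) and after PHx (0.91), where Batf was the other gene called by edgeR. DESeq2 called 2 of the 14 higher at baseline and 5 after PHx, and 0 lower. Mafk rose by 1.04 in the WT response, and Crem and Maf fell by 1.40 and 0.59 in the KO response. The Mafk call was lost in 4 of 20 fits that left out a library, and the KO fall of Maf in 3. Of 11 heat shock genes, which mark another stress response, Hsp90aa1 (-1.10), Hspa8 (-0.80) and Hspd1 (-0.61) were lower in KO at baseline. After PHx Hspb1 (1.99) and Bag3 (1.14) were higher in KO. In WT 4 fell, among them Hspa1b by 2.42, Hsph1 by 1.90 and Hspb1 by 1.53, and in KO Bag3 alone passed, with a rise of 1.35. With 1 library left out the Hsp90aa1 call was lost in 11 of 20 fits, the WT fall of Hspb1 in 8, and those of Hspa8, Hspd1 and Bag3 in KO against WT in 1 each. The Hspb1 difference after PHx was 1.37 without KO library 11 and 2.58 without WT library 1, without which its WT change was -2.13.

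Genes often listed as AP-1 targets were counted as well, a list written with earlier results of these data known. Of 25 tested (of 26 listed), 11 were higher and 0 lower in KO at baseline (median 2.06), and 7 and 0 after PHx (median 0.76). At baseline 7 of 14 macrophage markers, 7 of 12 stellate cell and fibroblast markers and 3 of 9 cholangiocyte markers tested were also higher in KO, and Spp1 is on both the target and the cholangiocyte list. After PHx these counts were 4, 5 and 7, with 0 lower. The part of these cells in the target counts was not tested. In the response to PHx 15 rose and 0 fell in WT (median 2.47), and 11 rose and 2 fell in KO (median 1.51). Of 6 neutrophil markers tested 4 rose in WT and 1 in KO, and of 9 cholangiocyte markers 1 and 4, with 0 falling. Of 14 macrophage markers 3 rose and 1 fell in WT, and 1 rose and 4 fell in KO. Their part was not tested. The metallothionein genes Mt2 and Mt1 rose most, by 7.23 and 6.44 in WT and by 5.53 and 5.03 in KO. Without KO library 12 after PHx the KO values were 4.78 and 4.33, and the WT value of Mt1 was 7.20 without baseline library 1 and 5.79 without library 4 after PHx. In WT, Mt2 went from 4.50 ± 3.64 to 673.4 ± 635.4 CPM (SD, n = 5 each). Plaur, the urokinase receptor gene, rose by 4.51 in KO. Mmp12, a macrophage metalloproteinase, was higher by 5.34 (SE 0.99, edgeR adjusted p = 0.000976) in KO at baseline and fell by 2.63 in the KO response. The KO fall of Mmp12 lost its call in 3 of 20 fits that left out a library. Lif was higher in KO at baseline (edgeR adjusted p = 0.0033), on 284 reads against 5, all 5 in WT library 4, a pooled ratio of 43.6 (95% counting interval 18.5 to 135). After PHx Lif was higher in KO by 3.57 (4.54 without WT library 2), and Itga2 (4.48) and Hbegf (4.43), which encodes an EGF receptor ligand, were the largest. Without KO library 8 the Itga2 difference was 3.27, and Hbegf was 3.84 without KO library 7 and 5.43 without WT library 2. Timp1, a metalloproteinase inhibitor gene, had 3 reads in the 5 WT baseline libraries together against 212 in KO, a pooled ratio of 54.3 (95% counting interval 18.3 to 265), and its rise in WT was a ratio of 62.8 (21.2 to 307). The difference between the responses was called for 0 of the 25 genes by edgeR, where 7 had an unadjusted p under 0.05, and for 4 by DESeq2.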

How the data were processed

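Per the labels, polyadenylated RNA from mouse liver was sequenced in 20 samples, 4 groups of 5. The authors deposited a file of raw counts for each library, with whole reads per Ensembl gene and no scaling. Per the design text, RNA with an integrity number above 8 went into TruSeq libraries (1000 ng), and paired-end reads were trimmed with fastp 0.20.0 and aligned to mm10, counting uniquely mapped reads; the submitters' processing notes name Trimmomatic 0.36 and FastQC 0.11.5 instead. The aligner, counter, annotation and strand setting are not given in the sources used here. Reads from overlapping genes cannot be told apart without strand, and reads shared by near-identical genes are lost.

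Symbols, positions and exon lengths came from GENCODE M21, which holds 46005 of the 46603 identifiers. Counts were tested with edgeR 4.0.16 (R 4.3.3), quasi-likelihood, two-sided, TMM, filterByExpr on the 4 groups, 4 group means over all 20 libraries, and Benjamini-Hochberg adjustment over 14661 genes at 0.05. SE was the log2 fold change over the square root of F. Alternatives were RLE size factors, library size alone, DESeq2 1.42.0, 2 other filters, fits of only the samples compared, a collection time term, the mouse as a block, and each library left out. The steps were tested on simulated data. Group spread is between animals; depth differed little, and counting intervals cover counting error only, since reads carry no molecular identifiers.

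The 10 genes, the gene lists and the markers were chosen with earlier results of these data known. Named genes were all 10 members, up to 3 called genes with the highest and lowest fold changes per list and comparison (mean of at least 1 CPM), and the 3 genes most like each member. Not every gene that this rule names is reported here. Pairing comes from the titles, which give 9 animals the same number at both stages. The check of residuals gave same-number correlations of 0.013 to 0.072 in WT and -0.051 to 0.149 in KO. The other pairs ranged from -0.069 to 0.078 and from -0.229 to 0.255. The 0.078 joins the unnumbered WT baseline library 1 with WT library 1 after PHx, so it may not come from different mice. Mean same-number correlations were 0.036 in WT and 0.068 in KO, against -0.007 and -0.017 in the other pairs. WT baseline library 1 has no number in its title, so neither it nor WT library 1 after PHx bears on the blocked responses; a fit of the other 18 libraries without the block was added after seeing the data.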

Additional observations from a re-analysis of the deposited data

Results flagged for a closer look

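Of 40 sets of 5 libraries (10 genes in 4 groups), 2 held a library far from the others by Dixon's criterion, and chance alone flags about 1 set in 20. In KO liver after PHx, library 11, a 40 h sample, held 7.39 CPM of Fosb, while the other 4 libraries ranged from 0.458 to 1.68 CPM. The gap to the nearest library was 0.824 of the group's range. Without that library the difference between the Fosb responses of KO and WT went from 0.99 to -0.20 on the log2 scale, neither called. In WT baseline liver, library 4 held 0.0459 CPM of Fosl1, which is 1 read, and the other 4 libraries were at 0.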

How the results depend on the processing

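Over all alternatives and left-out libraries, 1264 of 1388 values for the 10 genes kept their direction and their side of the threshold, 51 lost a call, 28 gained one and 45 changed sign. At baseline 3 genes were called higher in KO, against 6 with scaling by library size alone, 5 with only the samples compared in the fit, 5 with DESeq2, and 0 to 4 with 1 library left out. After PHx 2 were called, against 4 with library size alone, 1 with only the samples compared, and 1 to 4 with 1 library left out. Counts with 1 library left out were 4 to 6 in the WT response (6 with all), 6 to 8 in the KO response (7 with all) and 0 for the difference between responses throughout. With the replicate block (mouse number) 4 genes were called in the WT response, 7 in the KO response and 0 for the difference. The calls lost in that fit were those of Fos and Egr1 in WT. Its 18 libraries without the block, an alternative chosen after seeing the data, called 5, 7 and 0, and lost Egr1 in WT alone. Genotype comparisons at one stage hold no pairs. Library size alone moved the median of all genes by over 0.1, from -0.028 to 0.45 at baseline, from -0.011 to 0.368 after PHx, from 0.043 to 0.404 in the WT response and from 0.102 to 0.371 in the KO response. Over all genes it called 3521 higher and 113 lower at baseline (1631 and 717 with TMM) and 3897 and 296 after PHx (2342 and 1202). With only the samples compared these were 2846 and 2396, and 1127 and 218. The block called 889 and 1104 genes in the WT response (1327 and 1089 in the same libraries without it, 1677 and 1273 in all) and 1575 and 1732 in the KO response (2455 and 1632, 2561 and 1770). Among the 10 genes, signs changed only for values that were not called: Jund after PHx was -0.04 with a time term, and in the WT response 0.06 with library size alone. The Jun difference between responses was 0.00 with the 1 CPM filter and 0.04 with a time term. With the block the Fosb difference was -0.67 and the Klf6 difference -0.78 (-0.02 in its libraries without the block). Outside the 10 genes, Mapk9 was called with TMM at -0.32 (KO against WT after PHx) and -0.34 (WT response), and was 0.07 and 0.02 with library size alone. With 1 library left out, KO against WT after PHx ran from -0.19 to 0.17 for Jund and from -0.20 to 0.37 for Egr1, and the difference between responses ran from -0.38 to 0.20 for Jun, -0.48 to 0.22 for Junb, -0.20 to 1.58 for Fosb, -0.42 to 0.24 for Fosl2, -0.40 to 0.20 for Egr1 and -0.40 to 0.78 for Klf6. The causes were not tested. Depth limits Fosl1 in WT baseline liver, where 1 read was counted.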
